A study of Homo sapiens with 18 samples.

Results

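Neurotrophin signalling was followed through 6 genes, the receptors NGFR, NTRK2 and NTRK3, the ligands BDNF and NTF3, and the sorting receptor SORT1, of 57448 genes in the count table. The genes were taken by symbol, and they were chosen by the measured change of NGFR in the myrAKT cells, where its log2 fold change against WT had rank 2 of the 15587 genes that passed the filter on low counts (rank 1 was CDH18, which had no counts in WT). That contrast is therefore given for the members as a description with no test. Of the 6 members, 3 passed the filter (NGFR, BDNF and SORT1). BDNF and SORT1 were above 1 CPM (counts scaled to the depth of each library, with TMM factors, and given in parts per 1e6) in all 18 libraries, whereas NGFR was near 1 CPM in some groups and far above it in others.

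The libraries came from MDA-MB-231, an established line of triple negative breast cancer cells grown in culture. The 6 groups of 3 libraries were untreated parental cells (WT), untreated GPS2 knockout pools made with sgRNA set 1 (KO1) or sgRNA set 2 (KO2), untreated cells that carried myristoylated AKT from a retrovirus (myrAKT), and KO1 and KO2 cells given 10 µM of the allosteric AKT inhibitor MK2206 for 4 h (KO1+MK and KO2+MK). The knockout cells were pools that had received Cas9 and were not single clones, and no vehicle is named for the untreated cells. Replicates are numbered 1 to 3 in the labels, which do not say whether they were separate cultures, so the p-values measure the spread between these libraries, which may be technical.

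Neurotrophins are secreted growth factors that are made as longer precursors and cut by proteases such as furin and plasmin. Mature BDNF and NT-3 (the product of NTF3) bind the receptor tyrosine kinases TrkB (NTRK2) and TrkC (NTRK3). Both also bind the p75 receptor NGFR, a member of the TNF receptor superfamily with a death domain. The uncut precursors bind a complex of NGFR and sortilin (SORT1). In the normal breast NGFR is known from basal and myoepithelial cells, and outside the breast from neural crest cells and Schwann cells. AKT lies downstream of Trk receptors.

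In hg38 with the GENCODE release 44 annotation, NGFR (ENSG00000064300) lies on the plus strand of chromosome 17 (chr17:49495293-49515008). NTRK2 (ENSG00000148053) lies on the plus strand at chr9:84668375-85095751 and NTRK3 (ENSG00000140538) on the minus strand at chr15:87859751-88256791. BDNF (ENSG00000176697) lies on the minus strand at chr11:27654893-27722058, NTF3 (ENSG00000185652) on the plus strand at chr12:5432108-5521536, and SORT1 (ENSG00000134243) on the minus strand at chr1:109309568-109397918. All 6 are annotated as protein-coding. The counts were summed over the exons of each gene.

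The labels were checked first. GPS2, the target of the sgRNAs, was at 4.39, 4.88 and 4.40 CPM in WT, 4.52, 4.45 and 4.50 CPM in KO1 and 5.88, 6.07 and 6.12 CPM in KO2. Its RNA was thus not lower in either knockout pool, and a count over the whole gene does not show how the DNA was edited. The paper reports that western blot and genomic PCR bore out the knockdown. AKT1 was at 242, 231 and 218 CPM in myrAKT and between 121 and 145 CPM in the other 15 libraries, so the level of AKT1 RNA set the myrAKT libraries apart as labelled. GPS2 was at 6.01, 6.11 and 4.50 CPM in myrAKT.

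NGFR, the p75 neurotrophin receptor, ran from about 1 CPM to over 150 CPM across the 6 groups. It had 35, 35 and 46 counts in the WT libraries (1.02, 0.959 and 1.23 CPM) and 48, 44 and 41 counts in KO1 (1.26, 1.19 and 1.13 CPM). In KO2 it had 264, 349 and 337 counts (7.54, 8.97 and 9.16 CPM), and in myrAKT 6048, 4901 and 5940 counts (182, 157 and 154 CPM). In KO1+MK it had 19, 27 and 33 counts (0.789, 0.999 and 1.13 CPM), and in KO2+MK 211, 175 and 252 counts (7.08, 6.29 and 8.42 CPM). The libraries thus formed 3 tiers that did not overlap: WT, KO1 and KO1+MK at the bottom, KO2 and KO2+MK in the middle, and myrAKT at the top. Within the lowest tier the ranges of neighbouring groups in the order of the means (KO1+MK, WT, KO1) overlapped, and so did those of KO2+MK and KO2, whereas all 3 KO1+MK libraries lay below all 3 KO1 libraries, by less than 0.01 CPM between the nearest.

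The mean of NGFR was 1.07 ± 0.144 CPM in WT, 1.19 ± 0.0652 CPM in KO1, 8.56 ± 0.887 CPM in KO2 and 164.0 ± 15.3 CPM in myrAKT (SD, n = 3 each). KO2 thus held 5.22% of the mean level of myrAKT, and WT held 0.654%. Against WT the log2 fold change of NGFR was 0.13 (95% interval −0.26 to 0.53) in KO1, 2.99 (2.69 to 3.28) in KO2 and 7.24 (7.03 to 7.45) in myrAKT. These 3 values share the WT libraries with the choice of the gene and are given without a test. With both pools as 1 group the value against WT was 2.16, also without a test. In bulk RNA, a moderate level in every cell of KO2 and a high level in a small share of its cells cannot be told apart.

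**Figure D1:**
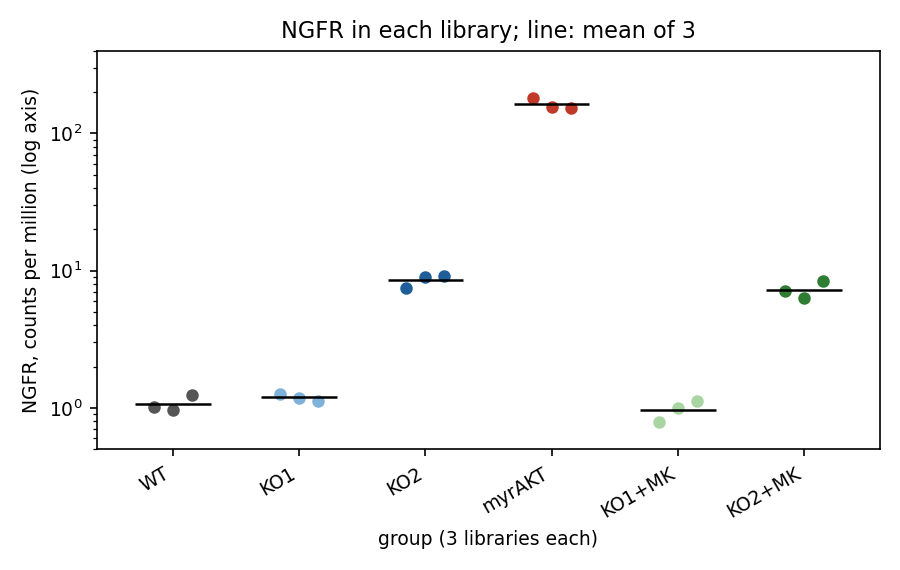
NGFR in CPM on a log axis for each of the 18 libraries, by group, with the mean of 3 libraries as a line. WT, KO1 and KO1+MK lie between 0.789 and 1.26 CPM, KO2 and KO2+MK between 6.29 and 9.16 CPM, and myrAKT between 154 and 182 CPM.

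KO2 against KO1 compares the same intended knockout made with different sgRNA sets, and shares no library with the choice of NGFR. NGFR was 7.21-fold higher in KO2 than in KO1 (log2 fold change 2.85, standard error 0.126, adjusted p = 6.56e-11), with all 3 KO2 libraries above all 3 KO1 libraries. In this comparison 116 genes were called higher (0.744% of 15587) and 292 lower (1.87%), a gene being called where its adjusted p did not exceed 0.001 and its level changed 1.5-fold or more. BDNF and SORT1 were not called, with log2 fold changes of 0.18 (adjusted p = 0.0180) and 0.09 (adjusted p = 0.0255). The pools also differed in sgRNAs and in their history after selection, and these cannot be told apart here.

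MK2206 asks whether the level of NGFR in the knockout cells moves when AKT is inhibited for 4 h. NGFR was not called in either pool, though its treated and untreated libraries did not overlap in KO1. Its log2 fold change with MK2206 was −0.26 in KO1 (95% interval −0.74 to 0.22, adjusted p = 0.360) and −0.22 in KO2 (−0.45 to 0.02, adjusted p = 0.119). In KO2, where counts were higher and the estimate tighter, the lower bound of −0.45 limits a decrease over these 4 h to less than the minimum fold of the call. MK2206 called 515 genes higher (3.3% of 15587) and 266 lower (1.71%) in KO1, and 764 higher (4.9%) and 336 lower (2.16%) in KO2. The difference in the MK2206 effect between KO2 and KO1 was 0.04 for NGFR (−0.45 to 0.53, adjusted p = 0.981). No gene was called in that test with edgeR (0% of 15587). An unadjusted p below 0.05 was reached by 1251 genes with edgeR, and DESeq2 called 5.

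The genes most like NGFR across libraries were listed by the Pearson correlation of log2 CPM, as a description. The libraries form groups, so a high value follows mainly from the group means. Over all 18 libraries the 5 highest values were those of TFAP2C (0.988), CNOT1 (0.987), GPX3 (0.986), ZBTB38 (0.984) and BRD7 (0.980). The list was not fixed. Over 20 other settings (other scalings or 1 library left out) as few as 3 of these 5 stayed among the 5 highest. In some of them CNOT1, GPX3 or ZBTB38 came first. TFAP2C, a transcription factor of the AP-2 family, had means of 21.9 CPM in WT, 20.8 in KO1, 30.9 in KO2 and 53.1 in myrAKT. The 5 genes shared with NGFR an order in which KO1 lay near WT and KO2 lay between WT and myrAKT, but over far smaller spans. That shared order follows from picking them by their likeness to NGFR in these libraries, and nothing further is read from it. Of the members, SORT1 had a value of 0.302 and BDNF −0.251 over the same 18 libraries, and −0.102 and 0.218 over the 15 without myrAKT.

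Over the 15 libraries that were not myrAKT, the 5 highest values were those of IL13RA2 (0.990), DCLK1 (0.985), MRFAP1L1 (0.980), EPB41L3 (0.970) and LINC01088 (0.969). Here too as few as 3 of the 5 stayed among the 5 highest over 17 other settings. IL13RA2, a decoy receptor for interleukin 13, was at 18.1, 18.8 and 18.9 CPM in KO2 and between 0.248 and 0.500 CPM in WT and KO1. It passed the filter only through KO2, KO2+MK and myrAKT, the groups where it was high. Its difference between KO2 and KO1 was thus partly fixed by the filter and is a description only. In myrAKT it was at 24.3, 24.0 and 21.6 CPM. KO2 thus held 79.8% of the myrAKT level of IL13RA2, against 5.22% for NGFR. The other 4 were lower in myrAKT than in KO2. The means in WT, KO2 and myrAKT were 5.26, 12.6 and 6.67 CPM for DCLK1, 25.7, 41.3 and 38.8 CPM for MRFAP1L1, 85.4, 168 and 64.1 CPM for EPB41L3 and 11.1, 27.3 and 1.00 CPM for LINC01088. CDH18, a cadherin chosen here after its values were seen, had no counts in WT, 10.6, 10.1 and 10.3 CPM in myrAKT, and 0.428, 0.360 and 0.299 CPM in KO2, where KO1 had 0.315, 0.405 and 0.635 CPM.

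CNOT1 and BRD7 both lie on the long arm of chromosome 16, and whole stretches of chromosomes were then compared between groups. These stretches were chosen after the values were seen and are described with no test. Of the 11157 tested genes with a mean of at least 5 CPM and a known position, the 157 on the long arm of chromosome 11 from 90 Mb on had a median log2 fold change of −0.80 in myrAKT against WT and of −0.40 in KO2 against KO1, which share no library. In myrAKT against WT 97.5% of these genes were below 0, and in KO2 against KO1 98.1%. KO1 against WT had a median of −0.04. The 214 genes on chromosome 16 from 50 Mb on had medians of 0.50 in myrAKT against WT, 0.16 in KO2 against KO1 and 0.07 in KO1 against WT.

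The rest of chromosome 11, with 478 genes, had medians of −0.49 in myrAKT against WT and −0.14 in KO2 against KO1. The 133 genes between 40 and 50 Mb of chromosome 17, where NGFR lies, had medians of 0.02 and 0.00 in the same comparisons. The other 10175 genes had medians of 0.01 and 0.00. In each KO2 library the median difference from the mean of WT on the far long arm of chromosome 11 was −0.40, −0.41 and −0.41, and in each KO2+MK library −0.44, −0.43 and −0.42. MK2206 had medians of −0.01 in KO1 and −0.03 in KO2 there. On this stretch KO2 thus lay between WT and myrAKT and KO1 near WT. Other stretches, all chosen after the values were seen, were of several kinds. In the 6 windows of 10 Mb with 20 or more genes between 50 and 130 Mb of chromosome 5, the medians ran from −0.65 to −0.41 in myrAKT against WT and from −0.05 to 0.07 in KO2 against KO1. The window from 90 to 100 Mb of chromosome 8 had 0.46 and 0.23 in the same comparisons, the 2 windows below 20 Mb of chromosome 18 had 0.28 and 0.46 in the former and 0.21 and 0.18 in the latter, and the first 10 Mb of X had −0.34 and −0.18. The windows from 50 to 60 and from 100 to 110 Mb of chromosome 3 had 0.04 and −0.03 in myrAKT against WT and 0.16 and 0.20 in KO2 against KO1, where KO1 against WT had −0.14 in both and KO2 against WT 0.07 and 0.05. The 3 windows from 170 to 200 Mb of that chromosome had −0.22, −0.10 and −0.13 in KO1 against WT and 0.03, 0.00 and 0.00 in KO2 against WT. KO1 thus also departed from WT where KO2 did not. The part of such regional differences in the level of NGFR was not tested. DNA copy number was not measured in these libraries.

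**Figure D2:**
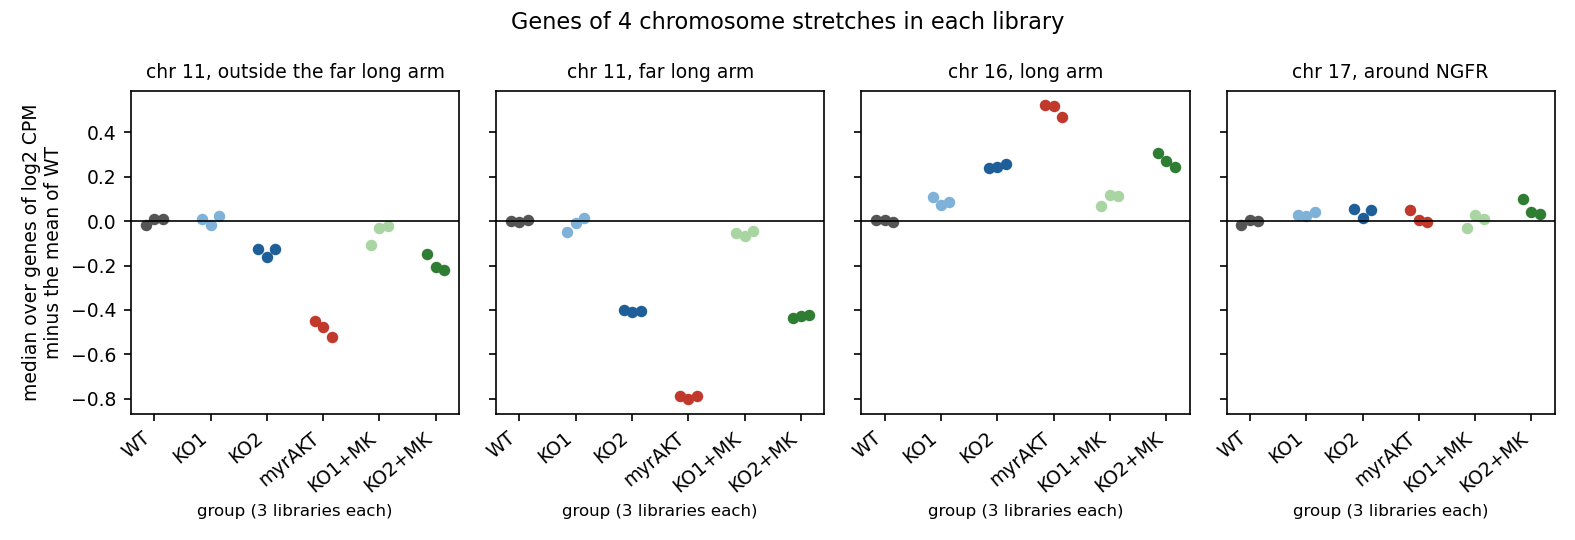
Median over genes of the log2 CPM difference from the mean of the 3 WT libraries, for each library by group and for 4 chromosome stretches, each point being 1 library. On the far long arm of chromosome 11 the KO2 libraries lie at −0.40 to −0.41 and the myrAKT libraries at −0.79 to −0.80, whereas around NGFR on chromosome 17 the value farthest from 0 is 0.10, in a KO2+MK library.

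The genes next to NGFR were looked at in the same way. Of 44 annotated genes within 500 kb of its start, 12 passed the filter. ABI3, an adaptor of the WAVE complex 285 kb upstream, was called higher in KO2 against KO1 with a log2 fold change of 1.06. In myrAKT against WT its value was −1.07, the opposite sign to NGFR. The nearest tested genes, EIF4EP2 (at −70.4 kb) and PHB1 (at −80.4 kb), had values of −0.19 and −0.05 in KO2 against KO1 and of −0.19 and 0.04 in myrAKT against WT. ZNF652, SPOP, SLC35B1, KAT7 and PHOSPHO1 were not called in any comparison. Against WT, DLX3 (−0.79 and −0.81) and FAM117A (−0.69 and −0.65) were called lower in both pools and DLX4 in KO1, and ABI3 was called higher in KO2 (0.78), so that 3 of 12 were lower in KO1 and 2 in KO2, beside 9.28% and 11.2% of all tested genes. With MK2206, FAM117A (0.77 and 0.85) was called higher in both pools, DLX3 higher in KO2 (1.40) and ABI3 lower in KO2 (−0.94). ENSG00000204584 was also called higher in both pools, but it passed the filter only through the libraries with MK2206. Counting it, 2 of the 12 were called higher in KO1 and 3 in KO2, beside 3.3% and 4.9% of all tested genes. Called lower were 0 in KO1 and 1 in KO2, beside 1.71% and 2.16%. In KO2 against KO1 1 of the 12 was called higher, beside 0.744% of all tested genes, and 0 lower. ENSG00000204584, which would not have passed the filter without the libraries with MK2206, had a value of 0.94 there and was not called. The calls of these neighbours were not rerun with the alternatives.

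The exons of NGFR overlap genes on the opposite strand, and the strand setting of the counting is not given in the sources used here. NGFR-AS1 shares 202 of the 4141 exon bases of NGFR (4.88%) and ENSG00000279036 shares 924 (22.3%). NGFR-AS1 had 61 counts over the 3 myrAKT libraries and at most 2 in any other library. ENSG00000279036 had 30 counts over all 18 libraries. Both totals are small beside the 16889 counts of NGFR in myrAKT. They do not show how reads over the shared bases were counted, and the effect of the overlap on NGFR was not tested.

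Both Trk receptors among the members were at or near the limit of detection. NTRK3 had 0 counts in all 18 libraries among 601727233 counted reads, and a count of 0 allows up to 3 counts per library, or 0.0763 to 0.128 CPM. NTRK2 had 7 counts in all, at most 2 in a library, and was at 0 in 12 libraries. No fold change is given for these receptors. At the level of RNA, NGFR and SORT1 were therefore the receptors among the members that passed the filter.

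SORT1, which pairs with NGFR to bind the precursors and also sorts proteins between the Golgi and endosomes, was the most abundant member. It was at 396, 411 and 404 CPM in WT, 334, 341 and 337 CPM in KO1 and 366, 348 and 355 CPM in KO2. In myrAKT it was at 389, 381 and 375 CPM, in KO1+MK at 327, 335 and 335 CPM and in KO2+MK at 345, 339 and 349 CPM. The knockout pools lay below WT without overlap, by log2 fold changes of −0.28 in KO1 (adjusted p = 1.10e-06) and −0.19 in KO2 (adjusted p = 0.000315), which did not reach the minimum fold of a call. MK2206 gave 0.00 in KO1 and −0.03 in KO2 (adjusted p = 0.947 and 0.496).

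Levels of different genes were compared per kilobase of exon. In WT the mean of NGFR was 0.259 CPM per kb and that of SORT1 44.2 CPM per kb. In myrAKT NGFR was at 39.6 ± 3.70 CPM per kb and SORT1 at 41.8 ± 0.780 CPM per kb (SD, n = 3). The RNA of the receptor there came near the level of that of its partner. Scaled by the longest annotated transcript, the myrAKT means were 48.1 for NGFR and 54.6 for SORT1. These lengths are from GENCODE release 44, and the annotation used for the counts is not given. In KO2 NGFR was at 2.07 CPM per kb of exon. SORL1, a relative of sortilin, was at 0.454 CPM per kb in WT and 0.968 CPM per kb in myrAKT. It lies on the far long arm of chromosome 11 and stood higher in KO2 than in KO1 (9.02 ± 1.08 against 6.27 ± 0.237 CPM, SD, n = 3; log2 fold change 0.54, adjusted p = 0.000271), which was not called. SORCS1, SORCS2 and SORCS3 did not pass the filter.

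BDNF, the main ligand of TrkB, was detected in every library and was lower with MK2206 in both pools. It was at 17.1, 15.8 and 17.5 CPM in WT, 16.5, 16.2 and 17.3 CPM in KO1 and 19.5, 18.2 and 18.4 CPM in KO2. With MK2206 it was at 10.3, 12.0 and 11.3 CPM in KO1 and 14.1, 13.6 and 11.3 CPM in KO2, and in neither pool did treated and untreated libraries overlap. The log2 fold change with MK2206 was −0.54 in KO1 (standard error 0.0676, adjusted p = 3.08e-05) and −0.51 in KO2 (standard error 0.0771, adjusted p = 7.68e-05). Both values pass the p of the call and not its minimum fold, and BDNF was not called. The effect differed between the pools by 0.03 (95% interval −0.19 to 0.26, adjusted p = 0.960).

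Without the inhibitor BDNF was near the level of WT, with log2 fold changes of −0.03 in KO1 (adjusted p = 0.707) and 0.15 in KO2 (adjusted p = 0.0370). In myrAKT BDNF was at 12.3, 12.7 and 11.4 CPM, a log2 fold change against WT of −0.48. The 478 genes of chromosome 11 below 90 Mb, where BDNF lies, had a median of −0.49 in the same contrast. BDNF-AS, read from the opposite strand, shares 988 of the 7740 exon bases of BDNF (12.8%). Its mean was 1.23 CPM in WT and between 0.880 and 1.44 CPM in the other groups, and it was not called in any comparison.

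**Figure D3:**
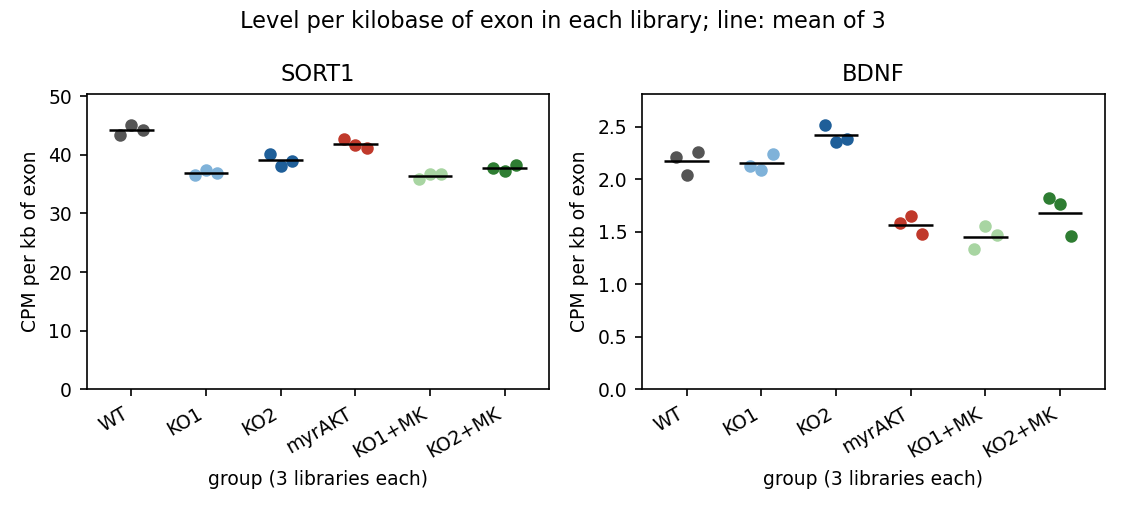
SORT1 and BDNF in CPM per kilobase of exon, for each of the 18 libraries by group, with the mean of 3 libraries as a line. SORT1 has means of 36.4 to 44.2 CPM per kb, and BDNF is lower in both groups with MK2206.

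RefSeq promoter windows of 300 bases (250 before and 50 after a start, GRCh38.p14) were searched for short motifs, because AKT is known to keep forkhead FOXO factors out of the nucleus and because BDNF is known to have a promoter that answers to CREB. Windows were matched for 5 of the 6 members (NTRK2, NTRK3, BDNF, NTF3 and SORT1; 14 windows), and NGFR was not matched. The forkhead letters GTAAACA, which read TGTTTAC on the other strand, were found in 3 of the 14 windows, and in 3.42% of all 35116 windows. The core of the cAMP response element, TGACGT, which reads ACGTCA on the other strand, was found in 1 of the 14 windows, and in 7.98% of all. The motifs do not overlap each other in these windows. The stretches around the matches are shown with the matching letters in capitals, 5′ to 3′ along the gene, since BDNF and SORT1 are the members with windows that passed the filter and NTRK2 encodes the receptor of BDNF. A match is a description of the letters only.
BDNF (minus strand, chr11:27722083-27722163): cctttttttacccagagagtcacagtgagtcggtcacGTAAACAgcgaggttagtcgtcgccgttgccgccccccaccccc
BDNF (minus strand, chr11:27701627-27701706): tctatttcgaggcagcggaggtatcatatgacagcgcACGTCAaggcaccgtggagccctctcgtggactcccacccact
SORT1 (minus strand, chr1:109393239-109393319): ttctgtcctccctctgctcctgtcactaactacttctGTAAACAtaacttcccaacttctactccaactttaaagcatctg
NTRK2 (plus strand, chr9:84669141-84669221): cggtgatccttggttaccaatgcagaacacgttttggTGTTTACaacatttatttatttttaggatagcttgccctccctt

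NTF3, the gene of NT-3, had 10 counts over the 18 libraries, at most 4 in a library, and was at 0 in 12. No fold change is given for it. NTF4, the gene of another neurotrophin, did not pass the filter either.

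In KO1 against WT 715 genes were called higher (4.59% of 15587) and 1447 lower (9.28%), and in KO2 against WT 866 higher (5.56%) and 1742 lower (11.2%). Both comparisons use the same WT libraries. In myrAKT against WT 770 genes were called higher (4.94%) and 1376 lower (8.83%), from which nothing is read for the members. Neither BDNF nor SORT1 was called in a knockout pool. SORL1 was not called in either pool, with values of −0.51 in KO1 (adjusted p = 8.26e-05) and 0.03 in KO2 (adjusted p = 0.789).

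**Figure D4:**
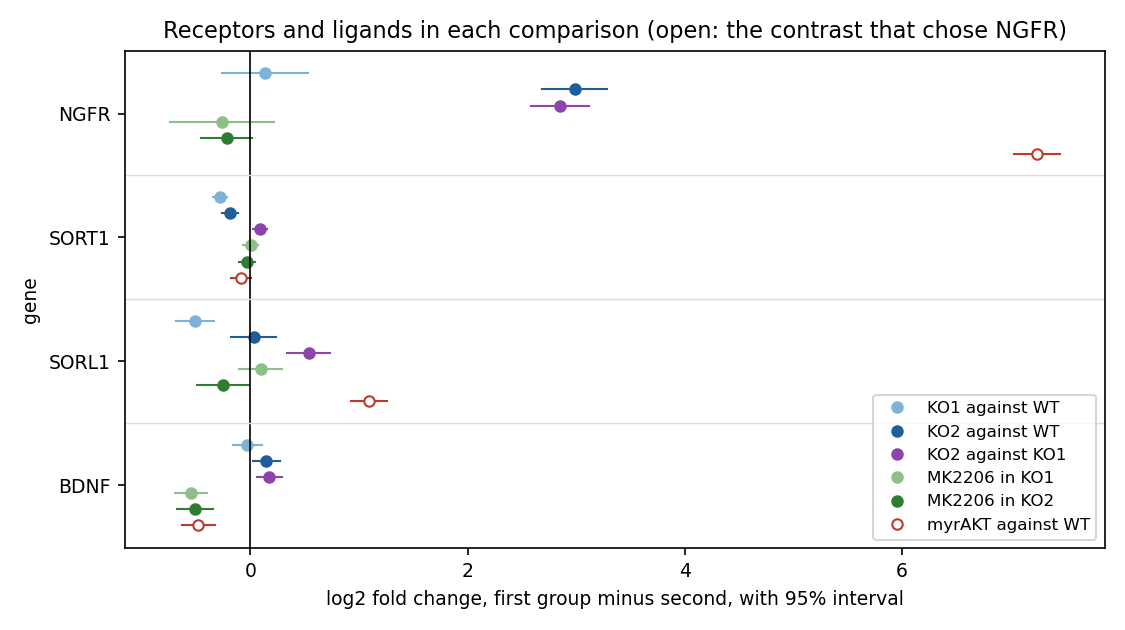
Log2 fold changes with 95% intervals of NGFR, SORT1, SORL1 and BDNF in 6 comparisons, the contrast that chose NGFR with open points. NGFR stands at 2.99 and 2.85 in KO2 against WT and against KO1 and at 7.24 in myrAKT, and BDNF at −0.54 and −0.51 with MK2206 in KO1 and KO2.

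Proteases that cut neurotrophin precursors, or that make the plasmin that does, were read in the knockout pools. Of 7 genes 5 passed the filter. Against WT 3 were called lower in KO1 and 2 in KO2, beside 9.28% and 11.2% of all tested genes. None was called higher, beside 4.59% and 5.56%. PCSK6, a convertase at 17.3 CPM in both WT and KO2, was not called. The median log2 fold change was −0.63 in KO1 and −0.21 in KO2 (all tested genes, −0.01 and 0.01). PLAT, the tissue plasminogen activator, fell from 341, 315 and 342 CPM in WT to 165, 170 and 168 CPM in KO1 and 108, 95.1 and 98.6 CPM in KO2. Its log2 fold change was −1.01 in KO1 (adjusted p = 6.31e-11) and −1.73 in KO2 (adjusted p = 1.56e-11), and KO2 stood below KO1 by −0.73 (adjusted p = 3.13e-10). FURIN fell by 0.76 on the log2 scale in KO1 and by 0.68 in KO2 (adjusted p = 7.66e-10 and 8.36e-09).

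PCSK5, another convertase, was called lower in KO1 and not in KO2, with values of −0.63 in KO1 against WT (adjusted p = 5.89e-05, a call lost without KO1 replicate 3, −0.53, and with both pools as 1 group, −0.31, adjusted p = 0.145) and 0.60 in KO2 against KO1 (adjusted p = 0.000234). With MK2206 it rose in KO1 by a log2 fold change of 0.62 (adjusted p = 0.000624). That rise was no longer called without any 1 of KO1 replicates 1, 2 and 3 or KO1+MK replicates 1 and 2, where the value lay between 0.52 and 0.69, nor with both pools as 1 group (0.51). PCSK7 was not called in any of the knockout or MK2206 comparisons. With MK2206 1 of the 5 tested genes of this list was called higher in KO1 and 0 in KO2 with edgeR, beside 3.3% and 4.9% of all tested genes, and 0 lower, beside 1.71% and 2.16%.

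The proteases that shed and cleave NGFR itself were all detected. The 8 genes, among them ADAM10, ADAM17 and NCSTN, passed the filter, and 0 were called in any of the 7 comparisons, in which the share of all tested genes called in 1 direction was 11.2% or less. ADAM10, which shares the shedding of many membrane proteins with ADAM17, had values of −0.42 in KO1 and −0.31 in KO2 against WT. NCSTN, a subunit of gamma-secretase, had −0.32 and −0.49. The median of the list was −0.24 in KO1 and −0.23 in KO2 against WT.

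Of 19 partners and adaptors of NGFR 15 passed the filter, among them the abundant RTN4, SQSTM1 and ARHGDIA, none of which was called. TNFRSF19 (TROY), which can take the place of NGFR beside the Nogo receptor, rose in KO1 (log2 fold change 0.77, adjusted p = 7.84e-05) and in KO2 (0.74, adjusted p = 0.000212). The call in KO2 was lost without WT replicate 3 (0.72) or KO2 replicate 1 (0.74). MAGED1 and MAGEH1, adaptors of the MAGE family, fell in KO2 by 0.70 and 0.80 on the log2 scale (adjusted p = 9.84e-09 and 0.000166). The call of MAGEH1 was lost without WT replicate 3 (−0.73) or KO2 replicate 1 (−0.70), and with both pools as 1 group (−0.50, adjusted p = 0.0343). RTN4R, the Nogo receptor, rose with MK2206 by 0.65 in KO1 (adjusted p = 0.000445) and 0.74 in KO2 (adjusted p = 8.14e-06). The call in KO1 was lost without any 1 of KO1 replicates 1, 2 and 3 or KO1+MK replicates 2 and 3 (0.51 to 0.66). In KO1 and KO2 against WT and with MK2206 in KO1 and KO2, 1 gene of the 15 was called higher in each, beside 4.59%, 5.56%, 3.3% and 4.9% of all tested genes, 2 were called lower in KO2 against WT, beside 11.2%, and 0 in the other 3, and the median of the list was between −0.07 and 0.13.

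Trk adaptors and effectors link the receptors to RAS, PLCγ and PI3K. Of 19 genes 17 passed the filter, and PTPN11, CRK and PLCG1, the most abundant, were not called. With MK2206, 2 were called higher in KO1 and 4 in KO2, beside 3.3% and 4.9% of all tested genes. None was called lower, beside 1.71% and 2.16%. GAB1, a docking protein for PI3K, rose by 0.77 in KO1 and 0.86 in KO2 (log2; adjusted p = 2.06e-06 and 6.99e-08). SOS2, an exchange factor for RAS, rose by 0.68 and 0.70 (adjusted p = 1.16e-07 and 3.31e-08). SHC4 and FRS2 rose in KO2 by 1.03 and 0.65 (adjusted p = 5.65e-05 and 1.24e-06). The medians with MK2206 were 0.18 and 0.15, against 0.01 and −0.01 over all tested genes. Against WT, SHC4 fell in both pools (−0.91 and −0.99), SOS2 in KO1 (−0.64), and GAB2 and FRS3 in KO2 (−0.69 and −0.68), which makes 2 of 17 lower in KO1 and 3 in KO2, beside 9.28% and 11.2% of all tested genes. With both pools as 1 group the calls of SOS2 in KO1 against WT (−0.58) and of FRS2 with MK2206 in KO2 (0.56) were lost.

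Genes known to be induced by neurotrophins in neurons and PC12 cells were read with MK2206. Many of them are immediate early genes that answer to several stimuli besides neurotrophins. Of 10 genes 9 passed the filter, 1 of them (ARC) only through the libraries with MK2206. Of the other 8, 4 were called higher in KO1 and 5 in KO2, beside 3.3% and 4.9% of all tested genes. None was called lower, beside 1.71% and 2.16%. The medians of these 8 genes were 0.69 in KO1 and 0.97 in KO2. EGR1, a zinc finger transcription factor, was at 9.23, 8.82 and 9.08 CPM in KO1 and rose to 116, 69.3 and 67.6 CPM with MK2206 (log2 fold change 3.24, standard error 0.192, adjusted p = 7.11e-08). In KO2 EGR1 rose from 7.57, 7.74 and 7.42 CPM to 54.1, 71.1 and 115 CPM (3.42, standard error 0.218, adjusted p = 2.29e-08).

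ARC, a cytoskeletal protein of synapses, was at 0.841 CPM or less in the 12 untreated libraries and at 2.11 CPM or more in the 6 with MK2206. It entered the test through the latter and had to differ, so its values of 2.49 in KO1 and 3.28 in KO2 on the log2 scale are given with no test. FOS rose by 1.86 and 2.51 (adjusted p = 6.64e-08 and 3.25e-07), JUNB by 1.36 and 1.80, and PLAUR, the urokinase receptor, by 0.67 and 0.78. NR4A1 rose in KO2 by 1.17 (adjusted p = 2.76e-05). FOSL1, the most abundant of the list, had −0.27 and −0.10 and VGF had 0.04 and −0.03, none of them called. The difference in effect between the pools was called for none of these genes with edgeR. BDNF, which neurons are known to induce along with EGR1, ARC and FOS, had values below 0 in the same libraries.

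In the untreated pools 3 of the 9 induced genes were called lower than in WT, beside 9.28% of all tested genes in KO1 and 11.2% in KO2. None was called higher, beside 4.59% and 5.56%. The 9 include ARC, which passed the filter only through the libraries with MK2206 and was not among the called genes here. EGR1 had −0.72 and −0.97, JUNB −0.76 and −1.29, and NR4A1 −0.93 and −1.42 in KO1 and KO2, all called, and the other 6 were not. With all 18 libraries in 1 fit the calls of EGR1 were lost, with EGR1 in KO1 against WT at −0.71 (adjusted p = 0.0161) and EGR1 in KO2 against WT at −0.96 (adjusted p = 0.00206). The medians of the list, with ARC included, were −0.37 in KO1 and −0.40 in KO2.

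**Figure D5:**
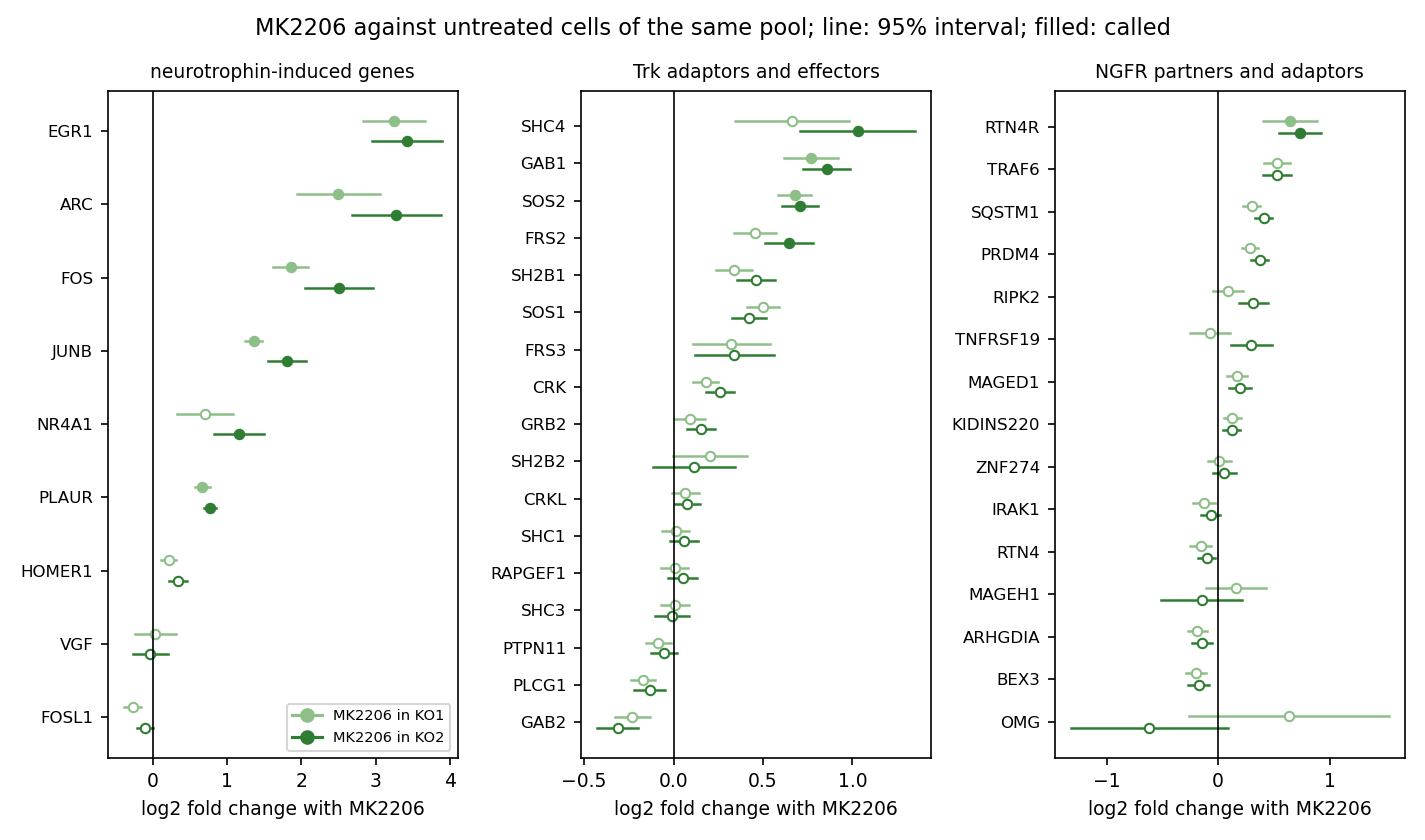
Log2 fold changes with MK2206 and their 95% intervals in KO1 and KO2 for every gene that passed the filter among neurotrophin-induced genes, Trk adaptors and effectors, and NGFR partners and adaptors, filled where called. ARC passed the filter only through the libraries with MK2206. EGR1 (3.24 and 3.42), ARC (2.49 and 3.28) and FOS (1.86 and 2.51) lie farthest to the right, and no filled point lies below 0.

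NGFR shares its death domain with other receptors of the TNF receptor superfamily. Of 7 such genes 6 passed the filter, 1 was called lower in KO1 and 3 in KO2 against WT, beside 9.28% and 11.2% of all tested genes, and 0 higher, beside 4.59% and 5.56%. TNFRSF25 fell in both pools (−1.48, adjusted p = 1.16e-06 in KO1 and −1.26, adjusted p = 1.13e-05 in KO2). TNFRSF10B (DR5) and TNFRSF1A fell in KO2 by 0.74 and 0.66 on the log2 scale (adjusted p = 1.27e-09 and 1.20e-08), and their values in KO1, −0.52 and −0.54, were not called. TNFRSF21 had −0.50 and −0.55 with MK2206 and was not called. The median of the list was −0.54 in KO2 and −0.36 in KO1 against WT. In KO2 against KO1 no gene of the list was called with edgeR.

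Markers of the cells in which NGFR is well known were read beside it. Of 9 markers of neural crest and Schwann cells 6 passed the filter, SOX10 had 0 counts in all 18 libraries and S100B was at 0.0585 CPM or less. The summed level of the list was 90.4 CPM in WT, 109 CPM in KO1, 109.7 CPM in KO2 and 60.5 CPM in myrAKT, most of it MITF, a transcription factor of melanocytes. ERBB3 fell in both pools (−1.28 and −1.64) and rose with MK2206 (0.63 in KO1 and 0.76 in KO2). The call in KO1 with MK2206 was lost with a replicate block (0.63) and without any 1 of KO1 replicates 1 and 3 or KO1+MK replicates 2 and 3 (0.55 to 0.66). GFAP fell in KO1 (−1.33), a call lost without KO1 replicate 3 (−1.21), and MITF fell with MK2206 in KO1 (−0.63), a call lost without KO1+MK replicate 1 (−0.58). Against WT 2 of the 6 were thus called lower in KO1 and 1 in KO2, beside 9.28% and 11.2% of all tested genes, and with MK2206 1 was called higher in each pool, beside 3.3% and 4.9%, and 1 lower in KO1, beside 1.71%.

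Of 8 basal and myoepithelial markers 3 passed the filter (MYH11, ACTA2 and OXTR), KRT5 had 0 counts in every library, and KRT14 was at 0.0415 CPM or less. Their sum was 11.6 CPM in WT, 6.72 in KO1, 7.68 in KO2 and 14.7 in myrAKT. ACTA2 fell in both pools (−1.17 and −0.97) and OXTR in KO1 (−1.14), which makes 2 of 3 lower in KO1 and 1 in KO2, beside 9.28% and 11.2% of all tested genes. Of the 10 genes that describe MDA-MB-231 cells, VIM, AXL and CD44 were at means of 1529, 1094 and 518 CPM over the 18 libraries, CDH1 was at 0.128 CPM or less, and none of the 8 that passed the filter was called in the knockout or MK2206 comparisons. The neural crest and Schwann cell sum was thus lowest and the basal and myoepithelial sum highest in myrAKT, while the members of the latter went both ways there against WT, with ACTA2 at a log2 fold change of 0.88 and OXTR at −1.16.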

How the data were processed

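RNA of 18 libraries was depleted of ribosomal RNA and sequenced. The authors deposited counts, the reads assigned to each Ensembl gene, without normalization; their processing notes name FastQC, Trim Galore, HISAT2, featureCounts, MultiQC and hg38. Versions, annotation and strand setting are not given in the sources used here. Libraries held 23419198 to 39319910 counted reads (median 34676713), and floors cover counting error only, whereas 95% intervals come from the fits over replicate libraries. Columns were assigned by sample title. GENCODE release 44 gave symbols for 41445 of 57448 identifiers.

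The 15587 genes that reached 1 CPM in 3 or more libraries were tested with edgeR 4.0.16 in R 4.3.3 (TMM, quasi-likelihood test, Benjamini-Hochberg adjustment over all tested genes), fitting only the groups compared. A gene was called where its adjusted p did not exceed 0.001 and its level changed 1.5-fold or more. Log2 CPM used a prior count of 2. DESeq2 1.42.0, other scalings, filters, thresholds and fits, both pools as 1 group, and omission of each library were alternatives. The edgeR test was tested on simulated data for KO2 against KO1 and MK2206 in KO2. An exact permutation test of 3 against 3 libraries cannot go below p = 0.1. Replicates differed by more than counting error (mean chi-square per gene 2.15 to 9.87). Tables and figures used Python 3.11.15, numpy 2.4.6, pandas 2.3.3 and matplotlib 3.10.9.

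The members and lists were chosen with earlier results of these data known. Named genes were the members, GPS2 and AKT1, the 3 most abundant genes of each list and up to 3 called genes per comparison with the largest change, the 5 genes most like NGFR in each set of libraries, and genes within 500 kb of it; some genes of the lists are not reported here. CDH18 and the chromosome stretches were chosen after values were seen.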

Additional observations from a re-analysis of the deposited data

Results flagged for a closer look

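The change from WT differed between the knockout pools for 3 of the 84 listed genes tested (2 higher and 1 lower in KO2, beside 0.744% and 1.87% of all tested genes), by the test of KO2 against KO1, which is also the test of the difference between those changes. The pools differ in sgRNAs and history as well, and the part of either was not tested. For NGFR the difference was 2.85 on the log2 scale (KO2 minus KO1), with NGFR near the level of WT in KO1 and above it in KO2. For PCSK5 it was 0.60, with a decrease called in KO1 alone. For PLAT it was −0.73, with a decrease in both pools that was larger in KO2. The calls of NGFR and PLAT held with each library left out in turn, and that of PCSK5 was lost without KO1 replicate 1 (0.64), KO1 replicate 3 (0.50) or KO2 replicate 2 (0.52), and also without a filter (0.56). No difference in the MK2206 effect between the pools was called for any listed gene with edgeR. Groups of 3 libraries were too small for a search for outlying libraries.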

How the results depend on the processing

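NGFR in KO2 against KO1 was called under every alternative tried, with log2 fold changes of 2.80 to 2.93 and an adjusted p of at most 1.66e-08. Apart from NGFR there and NGFR and BDNF with MK2206, 1230 log2 fold changes under alternatives kept their direction and side of the threshold or stayed within the spread of replicates, 33 lost their call, 2 gained a call, 21 reversed and 49 without a test moved by more than that spread. Without a minimum fold, the genes called numbered 6506 in KO1 against WT, 6715 in KO2 against WT, 4677 in myrAKT against WT, 2985 with MK2206 in KO1, 3416 with MK2206 in KO2, 1964 in KO2 against KO1 and 2 for the difference in the MK2206 effect. At an adjusted p of 0.05 with the minimum fold they numbered 1359 with MK2206 in KO1, 1661 with MK2206 in KO2, 734 in KO2 against KO1 and 7 for that difference. Without a filter KO2 against KO1 had 638 and the difference 33, and DESeq2 gave 5 for the difference. The difference ranged from 0 to 2 with 1 library left out (2 without KO2+MK replicate 1).

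BDNF with MK2206 passed without a minimum fold in KO1 (−0.54) and KO2 (−0.51), by construction, and in KO1 also without KO1+MK replicate 2 (−0.60; range −0.60 to −0.51 with 1 library left out). NGFR with MK2206 was called under none of the 16 alternatives in either pool. With 1 library left out its value ran from −0.39 to −0.15 in KO1 and from −0.34 to −0.13 in KO2. None of the values that reversed was called. BDNF in KO1 against WT was 0.0081 without a filter and 0.0566 with both pools as 1 group, and −0.0596 to 0.0108 with 1 library left out. GPS2 in KO1 against WT was 0.187 with both pools as 1 group and −0.0654 to 0.0252 with 1 library left out. SORT1 with MK2206 in KO1 was −0.00120 with DESeq2, −0.00124 with its size factors, −0.0300 without a filter, −0.000292 with at least 10 counts in every library, −0.0216 with all 18 libraries in 1 fit, −0.0139 with both pools as 1 group, and −0.0104 to 0.0101 with 1 library left out. The difference in the MK2206 effect ranged with 1 library left out from −0.0162 to 0.138 for BDNF and from −0.0698 to 0.177 for NGFR. The causes were not tested.

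The chromosome stretches were recomputed under 13 alternatives chosen after seeing the data. On the far long arm of chromosome 11 the median ran from −0.83 to −0.75 in myrAKT against WT. It ran from −0.44 to −0.38 in KO2 against KO1 and from −0.43 to −0.40 in KO2 against WT. It moved by more than the spread of replicates in 6, 9 and 12 of the 13. On chromosome 16 from 50 Mb on the ranges were 0.46 to 0.54 (myrAKT against WT) and 0.11 to 0.17 (KO2 against KO1). Libraries with MK2206 were shallower, and depth limits NTRK2, NTRK3 and NTF3 to the floor of counting.

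Replicate numbers gave no clear sign of pairing. The correlation of deviations between same-numbered libraries ran from −0.23 to 0.19 over the 18 pairs of the 6 comparisons tested. No comparison had every pair over 0.1. With 3 libraries in a group this cannot show that the libraries were unpaired. With a replicate block the genes called numbered 2083 in KO1 against WT, 2647 in KO2 against WT, 771 with MK2206 in KO1, 1161 with MK2206 in KO2, 491 in KO2 against KO1 and 0 for the difference in the MK2206 effect.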
